A study of Mus musculus with 4 samples.

Results

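Neuropeptide precursor genes were examined in insulinomas of RT2 mice, in which the SV40 large T antigen is expressed from the insulin promoter and turns the beta cells of the islets into tumors. The set held 6 genes (Nmu, Cck, Tac1, Gal, Npy and Vip) of the 18091 on the array, and all 6 had a row in the deposited values. The genes were selected on results of these same arrays, so their differences between the groups are given as a description, with no test. Tumors of mice injected with PBS (n = 2) were compared with tumors of mice injected with sEphB4-Alb (n = 2), the soluble EphB4 ectodomain joined to albumin. Each tumor was measured on 1 Illumina MouseRef-8 v2.0 array, which reads the brightness of labelled cRNA on gene-specific beads.

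Injections were intraperitoneal and were given 3 times a week to 6 mice per group, starting at 10 weeks of age, with sEphB4-Alb dosed at 10 mg/kg. All tumors were taken at 13.5 weeks of age from RT2 mice with both Dll4 alleles intact. The sample labels name CD1 and C57/BL6 backgrounds, the design text names C57/BL6, and the study's methods describe trials of PBS and sEphB4-Alb on each background. The mouse that each tumor came from is not labelled, so every error and p-value reflects the spread between the tumors measured and no more. In whole tumors, fewer cells of a type and less RNA per cell cannot be told apart.

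Neuropeptides are made as larger precursors, cut by prohormone convertases inside dense-core granules, often amidated at their end, and released when the cell is stimulated. They then act on G protein-coupled receptors of nearby or distant cells until peptidases at the cell surface degrade them. Neuroendocrine cells and the tumors that arise from them share this machinery with neurons, and several such peptides act on the islet itself, where galanin and neuropeptide Y restrain insulin release and cholecystokinin and vasoactive intestinal peptide promote it.

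The start regions of the genes are shown because transcription of neuropeptide genes is classically tied to cAMP response elements, the sites of the factor CREB. The windows come from RefSeq (build GRCm38.p6), run 5′ to 3′ on the strand of the gene and span 250 bases before to 50 bases after the start, and a window was found for all 6 genes. Whole windows are printed for the 3 genes above background whose groups of tumors did not overlap, Nmu (chr5:76363728-76364027 on the minus strand), Cck (chr9:121495645-121495944 on the minus strand) and Npy (chr6:49822460-49822759 on the plus strand). Capitals mark the core motif TGACG of the cAMP response element (CGTCA where it lies on the other strand), the AP-1 site TGANTCA and the TATA box TATAAA.
Nmu: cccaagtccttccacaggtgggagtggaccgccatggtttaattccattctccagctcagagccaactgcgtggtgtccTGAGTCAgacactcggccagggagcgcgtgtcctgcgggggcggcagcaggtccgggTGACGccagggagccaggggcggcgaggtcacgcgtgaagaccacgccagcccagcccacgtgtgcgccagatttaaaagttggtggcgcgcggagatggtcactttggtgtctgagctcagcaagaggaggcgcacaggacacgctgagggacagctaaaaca
Cck: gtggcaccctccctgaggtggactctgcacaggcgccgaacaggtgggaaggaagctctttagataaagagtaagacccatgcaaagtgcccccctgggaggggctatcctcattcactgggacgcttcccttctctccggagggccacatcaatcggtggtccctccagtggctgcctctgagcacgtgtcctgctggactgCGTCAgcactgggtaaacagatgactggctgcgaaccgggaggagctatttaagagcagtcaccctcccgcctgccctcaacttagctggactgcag
Npy: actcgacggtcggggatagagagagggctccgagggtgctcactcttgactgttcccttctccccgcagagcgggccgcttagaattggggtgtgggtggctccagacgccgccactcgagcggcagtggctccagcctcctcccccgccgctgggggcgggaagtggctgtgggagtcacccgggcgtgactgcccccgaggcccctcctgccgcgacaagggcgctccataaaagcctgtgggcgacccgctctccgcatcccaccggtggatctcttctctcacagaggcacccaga
For Tac1 (chr6:7555000-7555040 on the plus strand) and Vip (chr10:5639121-5639161 on the plus strand) the stretch around the core motif nearest to the start is printed.
Tac1: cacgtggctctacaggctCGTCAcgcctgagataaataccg
Vip: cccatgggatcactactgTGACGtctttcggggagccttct

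Motifs were searched on both strands of each window. The core motif TGACG was present in 5 of 6 windows and in 20.8% of the 32851 mouse promoter windows of the same length. Counted from the start, with 1 as its first base, it lay at -114 to -110 in Nmu, at -47 to -43 in Cck, at -197 to -193 and at -43 to -39 in Tac1, at 20 to 24 in Gal and at -79 to -75 in Vip. The window of Npy did not hold these letters. The full palindrome TGACGTCA, which contains the core motif on both strands, was in 0 of 6 windows and in 1.79% of all windows. The AP-1 letters TGANTCA were found in Nmu alone (-171 to -165, matched as TGAGTCA), against 7.81% of all windows. TATAAA was found in Vip alone (13.6% of all windows), where 3 copies began at -157, -147 and -30. The E-box CAGNTG was in 3 of 6 windows (51.4% of all windows) and the GC box GGGCGG in 4 of 6 (35.7%). A match of letters describes the window and does not show that a factor is bound there.

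The deposited signals had lowest values of 92.1 to 100.4 per array and medians of 135.5 to 168.7, both sEphB4-Alb arrays having the higher medians. Signals were corrected for background, quantile normalized and put on the log2 scale, and 10523 genes that exceeded the background limit of the array (a signal of 132 to 144) on both arrays of at least 1 group were tested with limma. No gene had an adjusted p under 0.05 (0%; smallest adjusted p = 0.712), while 397 genes were higher and 285 lower in sEphB4-Alb tumors at an unadjusted p under 0.05. PBS tumor 1 stood apart from the others, with correlations of 0.945 to 0.954 over the genes tested against 0.975 to 0.979 among the other tumors. The insulin genes Ins1 and Ins2 were well above background in all 4 tumors, as the label of the tissue requires, whereas Slc2a2, the glucose transporter of mouse beta cells, and Pax6 were not above background in any. Xist, transcribed in female cells, had normalized log2 signals of 6.46 and 6.24 in PBS tumors, where it was not above background, against 8.21 and 9.16, and Ddx3y of the Y chromosome was 8.84 and 9.41 against 6.47 and 7.16. Legends in the study name male mice for the tumor measurements, and sex, should it differ between these mice, cannot be told apart from the treatment.

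Of the 6 genes, 5 exceeded background in both tumors of at least 1 group, and all 5 had a higher mean in the sEphB4-Alb tumors. The log2 differences ran from 0.17 for Gal to 1.15 for Nmu, with a median of 0.79, against a median of -0.01 over the 10523 genes tested. Nmu and Cck differed by more than 2-fold, as did 1.7% of the genes tested, in the same direction. In 3 of the 5 genes (Nmu, Cck and Npy) the lower sEphB4-Alb tumor exceeded the higher PBS tumor, which held for 18.5% of the genes tested. These shares are printed for scale only, since the genes were chosen on the same contrast.

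**Figure D1:**
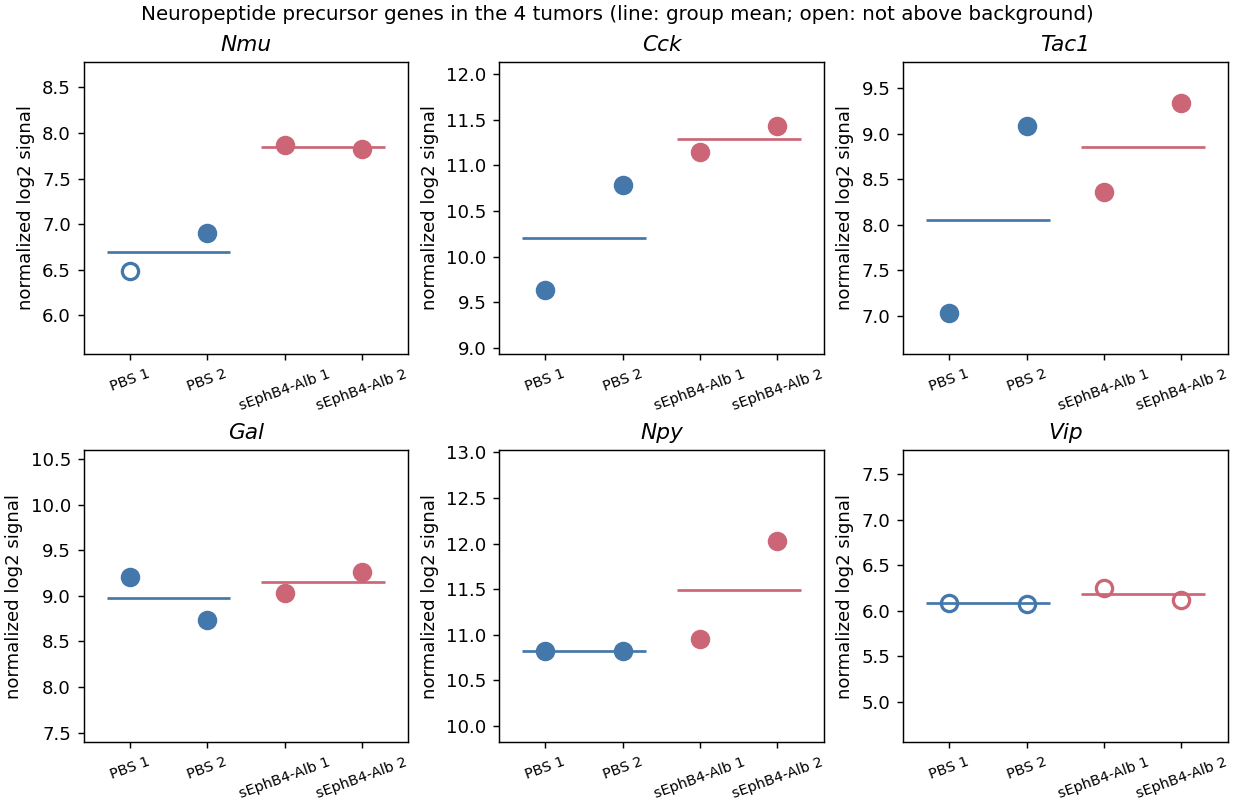
Normalized log2 signal (y axis) of the 6 neuropeptide precursor genes in each of the 4 tumors (x axis), 1 point per tumor, with open points where the signal was not above background and lines at the group means. Every panel spans the same number of log2 units, so heights of steps can be compared, and the groups are apart in Nmu, Cck and Npy, cross in Tac1 and Gal, and stay at background in Vip.

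Nmu encodes neuromedin U, a peptide that contracts smooth muscle and curbs feeding. Its deposited signals were 132.3 and 163.7 with PBS against 327.2 and 372.9 with sEphB4-Alb. After normalization the log2 signals were 6.48 and 6.91 against 7.87 and 7.83, so the sEphB4-Alb tumors nearly coincided and both lay above the PBS tumors. The group means were 6.70 ± 0.30 and 7.85 ± 0.03 (SD, n = 2), a log2 difference of 1.15 (SE 0.20), or 2.22-fold. Every SE given is the moderated one of limma, which draws a gene's variance toward that of all genes tested. It can therefore be smaller than the SDs beside it imply. PBS tumor 1 was at 0.984 of its array's background limit and so was not above background, which leaves the PBS level resting on 1 measured tumor. Leaving out any 1 tumor gave log2 differences between 1.02 and 1.36. The difference in Nmu was larger than that of 98.8% of the genes tested, a rank printed for scale only, since Nmu was chosen on the same contrast.

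Cck encodes cholecystokinin, the gut hormone that empties the gallbladder and stimulates pancreatic enzyme secretion, which is also a transmitter in the brain. Deposited signals were 513.6 and 1793 with PBS against 2668 and 4297 with sEphB4-Alb, the widest span of the 6 genes at 8.37-fold between the lowest and the highest tumor. On the normalized log2 scale the tumors stood at 9.63, 10.79, 11.14 and 11.44 in the same order, with PBS tumor 1 far below the others and PBS tumor 2 close to sEphB4-Alb tumor 1. The means were 10.21 ± 0.82 and 11.29 ± 0.21 (SD, n = 2), a log2 difference of 1.08 (SE 0.41), or 2.11-fold. This size rested on the PBS tumors, since it was 0.50 without PBS tumor 1 and 1.67 without PBS tumor 2.

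Npy encodes neuropeptide Y, a co-transmitter of sympathetic nerves that promotes feeding. Its deposited signals were 1112 and 1827 with PBS against 2354 and 6469 with sEphB4-Alb. Normalization brought the PBS tumors to the same log2 signal (10.82 in each), with 10.95 in sEphB4-Alb tumor 1 and 12.03 in sEphB4-Alb tumor 2. The groups therefore did not overlap, but sEphB4-Alb tumor 1 lay far closer to the PBS tumors than to the other tumor of its own group. The means were 10.82 and 11.49 ± 0.76 (SD, n = 2), a log2 difference of 0.67 (SE 0.38), or 1.59-fold. Without sEphB4-Alb tumor 2 it was 0.13, and without sEphB4-Alb tumor 1 it was 1.22.

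Tac1 encodes the tachykinins substance P and neurokinin A, which act in pain and in neurogenic inflammation. The deposited signals were 150.1 and 582.8 with PBS against 439.4 and 1026 with sEphB4-Alb. The normalized log2 signals of 7.03 and 9.09 against 8.36 and 9.34 overlapped, because PBS tumor 2 lay above sEphB4-Alb tumor 1. The means were 8.06 ± 1.46 and 8.85 ± 0.69 (SD, n = 2), and their log2 difference of 0.79 was close to its moderated SE of 0.75. The pooled SD of the groups, 1.14, was larger than the difference. PBS tumor 1, at 1.12 times its background limit, decided the direction, as the difference was -0.25 without it, 1.81 without PBS tumor 2, 1.28 without sEphB4-Alb tumor 1 and 0.28 without sEphB4-Alb tumor 2. Within the PBS group alone, the tumors were 2.06 log2 units apart.

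Gal encodes galanin, a peptide that inhibits insulin secretion and neuronal firing. It was the steadiest of the 5 genes above background, with deposited signals of 400.3 and 464.5 with PBS against 661.9 and 970.2 with sEphB4-Alb. These raw signals did not overlap, but the normalized log2 signals did (9.21 and 8.73 against 9.03 and 9.26). The means were 8.97 ± 0.34 and 9.15 ± 0.16 (SD, n = 2), a log2 difference of 0.17 (SE 0.23). It was -0.062 without PBS tumor 2, 0.42 without PBS tumor 1, 0.29 without sEphB4-Alb tumor 1 and 0.056 without sEphB4-Alb tumor 2. Under median scaling the groups were apart, at 8.68 and 8.78 against 9.13 and 9.62, so for Gal the scaling decided whether the tumors separated.

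Vip encodes vasoactive intestinal peptide, which relaxes smooth muscle and raises cAMP in its target cells. Its signals of 119.0 and 116.3 with PBS against 134.4 and 128.5 with sEphB4-Alb were between 0.880 and 0.942 of the background limits. Vip was thus not above background in any tumor, so the order of its tumors carries no level and no fold is given.

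The 5 genes did not share 1 profile across the tumors. PBS tumor 1 was the lowest tumor in Nmu, Cck and Tac1 and the second highest in Gal. sEphB4-Alb tumor 2 was the highest in Cck, Tac1, Gal and Npy. Profiles were compared by the root mean square difference of the log2 deviations of each gene from its own mean over the 4 tumors. The closest pair was Nmu and Cck (0.29) and the farthest was Tac1 and Gal (0.98). By the same measure, genes near to Nmu included Snx10 (0.07) and Hoxb5 (0.09), and those nearest to Cck were Rsph1 (0.03), Dok5 (0.07) and Inhba (0.09). Nearest to Npy were Cox7a2 (0.09), Mia1 (0.10) and Foxa3 (0.12), and genes near to Gal included Lsm5 (0.02) and Gm648 (0.03). Tac1 had few close neighbours, the nearest being Arl16 (0.17), 1110036O03Rik (0.19) and Cntn1 (0.27). Within 0.3 of a gene's profile lay 4 tested genes for Tac1, 114 for Cck, 130 for Npy, 199 for Nmu and 6154 for Gal, whose profile is nearly flat. These are likenesses over 4 arrays only, so many genes can share a profile.

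**Figure D2:**
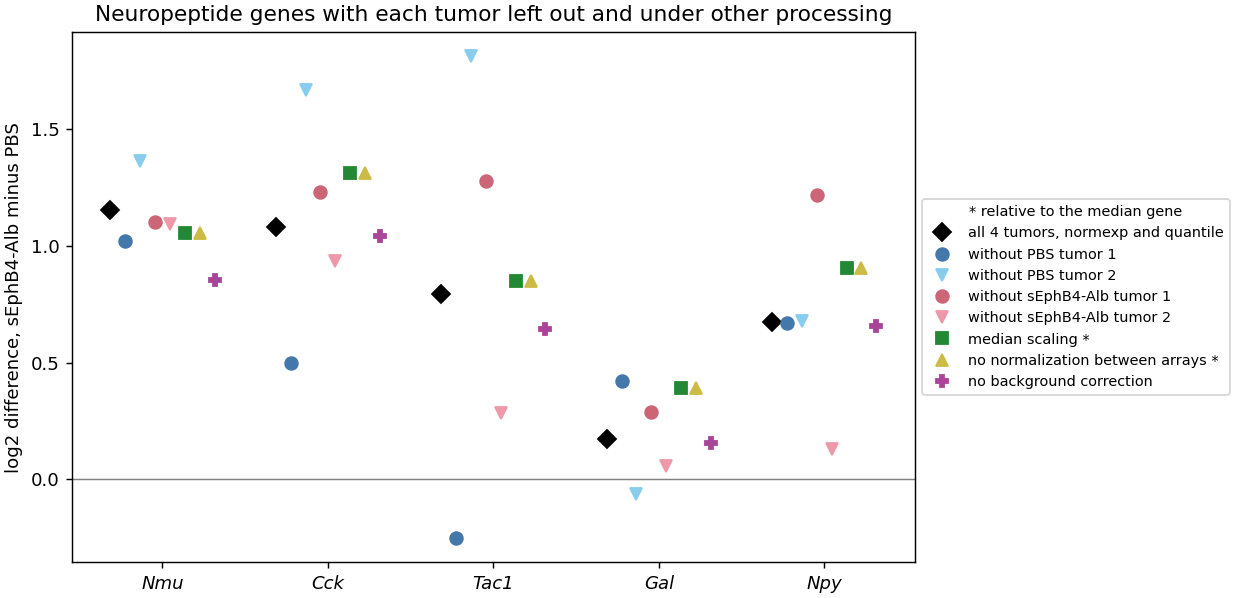
Log2 difference between sEphB4-Alb and PBS tumors (y axis) for the 5 neuropeptide genes above background (x axis), with 1 symbol for the values reported, for each tumor left out and for 3 other ways of processing. Values under median scaling and without normalization are relative to the median gene. Nmu stays between 0.85 and 1.36, while Tac1 spans -0.25 to 1.81.

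The genes around the neuropeptides were taken from 5 lists covering receptors, related precursors, processing enzymes, peptidases and granule proteins. Of their 92 genes with a row in the values (105 listed), 52 were tested, 32 of them with a higher and 20 with a lower mean in the sEphB4-Alb tumors, at a median log2 difference of 0.10. Only 1 gene (Scg3) passed the thresholds of 2-fold and an unadjusted limma p of 0.05 in the higher direction and 0 in the lower, against 0.969% and 0.162% of all genes tested, and none had an adjusted p under 0.05. At an unadjusted p under 0.05 alone, 4 of the 52 were higher and 0 lower, against 397 and 285 of the 10523 genes tested. The groups did not overlap in 16 higher and 5 lower genes of the 52, where 18.5% and 20.7% of all genes tested did so. With median scaling 4 of these genes passed both thresholds as higher and without normalization 14 did, while the count over all genes went from 102 to 296 and to 1101. Under these settings the differences counted still held the shift of the median gene, log2 0.25 and 0.58. Without PBS tumor 2 the counts were 10 higher and 2 lower (301 and 176 over all genes), without sEphB4-Alb tumor 1 they were 3 and 0, and without sEphB4-Alb tumor 2 they were 0 and 0.

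Receptors were mostly dim. Of the 18 receptors of these peptides listed, 17 had a row, 3 were tested and 8 were not above background in any tumor (Nmur1, Cckar, Tacr3, Galr2, Galr3, Ppyr1, Npy6r and Vipr1). Galr1, the Gi-coupled galanin receptor, was above background in all 4 tumors, at log2 signals of 7.04 and 6.54 in the PBS and 6.64 and 6.71 in the sEphB4-Alb tumors (log2 difference -0.12, SE 0.22). Npy1r, the Y1 receptor of neuropeptide Y, differed by -0.14 (SE 0.30). Tacr2, the neurokinin A receptor, exceeded background in 2 of 2 sEphB4-Alb and 0 of 2 PBS tumors, at nearly equal signals (-0.02, SE 0.17). In all 3 the groups overlapped.

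Among 39 related neuropeptide precursors, 32 had a row and 13 were tested, with a median log2 difference of 0.14. Cartpt, the precursor of the CART peptides of brain and islet, had the largest difference. Its log2 signals were 11.04 and 12.47 with PBS against 12.69 and 13.65 with sEphB4-Alb, a log2 difference of 1.41 (SE 0.57, limma adjusted p = 0.743), so the groups did not overlap and the test was not passed. Cartpt passed both thresholds with an intensity trend and robust prior, and under median scaling before the shift of the median gene was taken off. Its difference was 0.68 without PBS tumor 1, 2.15 without PBS tumor 2, 1.92 without sEphB4-Alb tumor 1 and 0.94 without sEphB4-Alb tumor 2. Both values above the original one passed the thresholds. PBS tumor 1 was again the lowest and sEphB4-Alb tumor 2 the highest, as in Cck. Pnoc, the nociceptin precursor, exceeded background only in the sEphB4-Alb tumors (6.94 and 6.54, against 6.10 and 6.35). Pdyn, which encodes the dynorphins, differed by 0.34 (SE 0.27). Adcyap1, which encodes PACAP, a close relative of vasoactive intestinal peptide, had the shape of Tac1 in the PBS tumors, with 6.03 and 8.05, and 7.61 and 6.87 in the sEphB4-Alb tumors. Calca, the calcitonin and CGRP gene, was lower by 0.30 on the log2 scale in sEphB4-Alb tumors, within overlapping groups.

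**Figure D3:**
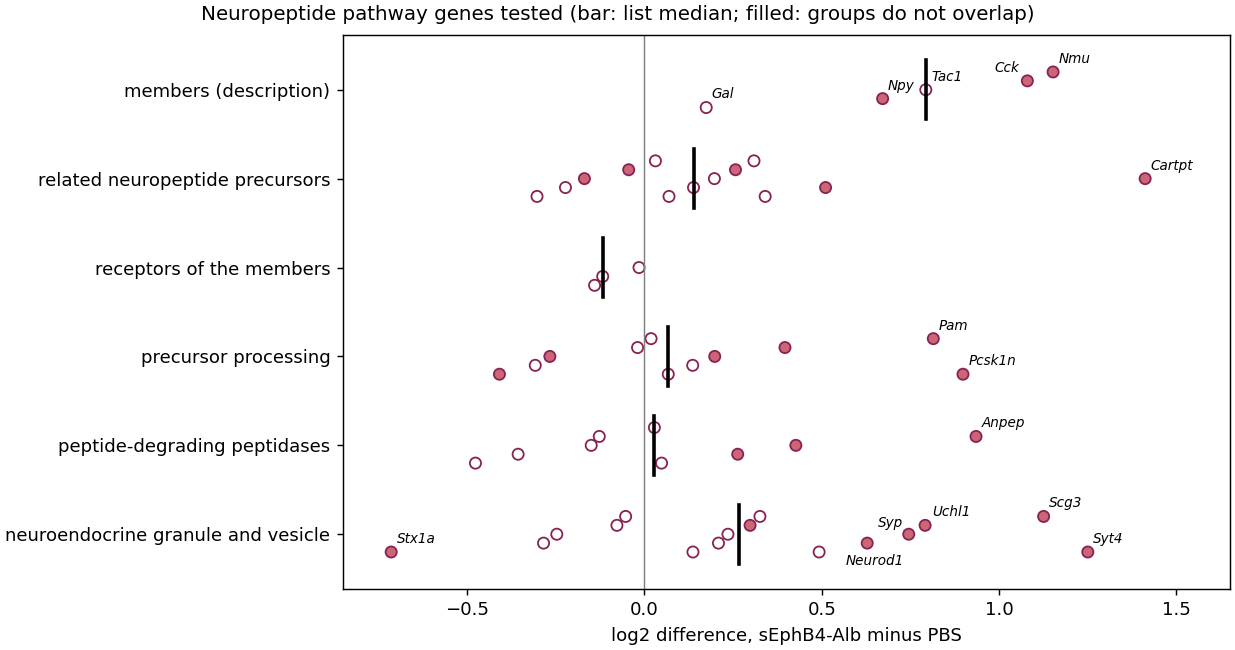
Log2 difference between sEphB4-Alb and PBS tumors (x axis) for each tested gene of the neuropeptide set and of 5 lists of related genes (y axis), with 1 point per gene, filled where the groups do not overlap, and a bar at the list median. Only Scg3 among the listed genes outside the neuropeptide set passed 2-fold and an unadjusted p of 0.05, and Cartpt and Syt4 exceeded 2-fold alone.

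Of 16 enzymes and helpers that cut and finish the precursors, 12 had a row and 11 were tested, all 11 above background in every tumor, with a median log2 difference of 0.07 and 0 past both thresholds. Pcsk2, the convertase that makes many of these peptides, differed by -0.02 (SE 0.20) and its chaperone Scg5 by 0.02 (SE 0.39), both with overlapping groups, while Pcsk1, the other main convertase, was not above background in any tumor. Pcsk1n, which encodes proSAAS, an inhibitor of Pcsk1, stood at 10.49 and 10.79 against 11.39 and 11.68 (0.90, SE 0.20, limma adjusted p = 0.743). Under median scaling it passed both thresholds at 1.36, before the shift of the median gene was taken off (1.11 relative to that gene). Its difference was 1.05 without PBS tumor 2 and 1.04 without sEphB4-Alb tumor 1. Pam, the enzyme that amidates the ends of neuromedin U, cholecystokinin, substance P, galanin, neuropeptide Y and vasoactive intestinal peptide, stood at 7.37 and 8.63 against 8.95 and 8.69 (0.81, SE 0.44, adjusted p = 0.753). As for Cck and Tac1, PBS tumor 1 was the low one, and the difference in Pam was 0.19 without it and 1.43, past both thresholds, without PBS tumor 2. Tyrosine sulfation, which gives cholecystokinin its potency, is carried out by Tpst1 and Tpst2, and these differed by -0.27 (SE 0.16) and 0.20 (SE 0.16), with groups that did not overlap in either gene. Furin was 0.40 (SE 0.17) and the aminopeptidase Rnpep -0.41 (SE 0.19), again without overlap and without passing the test. Qpct, Pcsk7 and Ctsl differed by 0.14, -0.31 and 0.07 with overlapping groups.

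Of 13 peptide-degrading peptidases with a row (14 listed), 9 were tested and 0 passed both thresholds, with a median log2 difference of 0.03. Mme, the neprilysin that degrades substance P, was not above background in any tumor. Anpep, the cell-surface aminopeptidase N, stood at 6.57 and 6.92 with PBS against 7.76 and 7.60 with sEphB4-Alb (0.94, SE 0.20, limma adjusted p = 0.743), just short of 2-fold, and it passed both thresholds without PBS tumor 2 (1.11) and, before the shift of the median gene is taken off, under median scaling. Thop1 (-0.48, SE 0.54) had overlapping groups, and Tpp2 (0.43, SE 0.19) did not.

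Granule and vesicle genes, which hold and release the peptides, had a median log2 difference of 0.27 over 16 tested of 18, with 6 genes apart in the higher and 1 in the lower direction (18.5% and 20.7% of all genes tested). Scg3, a granin that helps to form dense-core granules, was the 1 gene past both thresholds, at 8.97 and 9.19 against 10.09 and 10.33 (1.13, SE 0.18, unadjusted p = 0.00185, adjusted p = 0.712 by limma). Without sEphB4-Alb tumor 2 its log2 difference was 0.999 and the 2-fold threshold was missed. Syt4, a vesicle synaptotagmin, stood at 9.25 and 10.73 against 11.01 and 11.47 (1.25, SE 0.52), a difference that was 0.50 without PBS tumor 1 and 2.00, past both thresholds, without PBS tumor 2. Uchl1 and Syp, markers of neuroendocrine cells, differed by 0.79 (SE 0.32) and 0.75 (SE 0.39), with PBS tumor 1 the lowest in both. Uchl1 stood at 8.62 and 9.49 against 9.80 and 9.90. Syp stood at 12.36 and 13.43 against 13.83 and 13.45, so PBS tumor 2 lay close to sEphB4-Alb tumor 2. The granins Chga (0.33), Chgb (0.14) and Scg2 (-0.25) had overlapping groups, with errors of 0.34 to 0.61. Stx1a, a plasma membrane SNARE of exocytosis, was lower by 0.71 on the log2 scale (SE 0.40), the groups not overlapping. It stood at 10.83 and 9.69 against 9.60 and 9.49, so PBS tumor 1 was the high one and PBS tumor 2 lay close to the sEphB4-Alb tumors. The list of other islet cell markers had a median log2 difference of 0.31 over 6 tested genes, 2 of them past both thresholds as higher (0.969% of all genes tested). These were Sst at 7.02 and 8.81 against 12.02 and 10.99, and Pyy, a relative of Npy, at 6.26 and 7.01 against 8.71 and 8.21. Pyy was not above background in PBS tumor 1. Gcg, the glucagon gene, differed by -0.23 (SE 0.35) with overlapping groups, and Ppy, the pancreatic polypeptide gene of the Npy family, by 0.40 (SE 0.21).

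Markers of other cell types are given for the same tumors, and 0.969% of all genes tested passed both thresholds as higher. Summed signals are sums of normalized linear signals over every gene of a list with a row, including those at background. The 18 tested acinar markers had a median log2 difference of 1.93 with 1 past both thresholds. Over the 19 with a row the summed signal was 9847 and 43156 with PBS against 32437 and 166846 with sEphB4-Alb. This order, with PBS tumor 1 lowest, PBS tumor 2 above sEphB4-Alb tumor 1 and sEphB4-Alb tumor 2 highest, was also that of Tac1. Over the 17 gut epithelium and stomach markers with a row, summed signals were 1650 and 3288 against 8236 and 13665. The 10 tested had a median of 1.19, with 5 past both thresholds, among them Gkn1 (3.64, SE 0.96), Gkn2 (3.68, SE 0.82) and Tff2 (2.80, SE 0.49). Gkn1 and Gkn2 were above background in 1 of 2 PBS tumors, and without PBS tumor 1, where they were dim, they differed by 2.20 and 2.65. All 3 missed the unadjusted p threshold without moderation of the variances. Vil1, Fabp2 and Cckar of that list were not above background in any tumor. The 11 duct markers had a median of 0.73, 3 past both thresholds and summed signals of 1433 and 2458 against 3419 and 3807. Cck, like these lists, was lowest in PBS tumor 1 and highest in sEphB4-Alb tumor 2. Macrophage markers had a median of 0.39 over 11 tested genes, 10 of them higher. The groups were apart as higher in 8 (18.5% of all genes tested) and 0 passed both thresholds. Their summed signals were 11714 and 5284 against 10030 and 8398. Lyz2, the brightest of these markers in PBS tumor 1, weighed heavily in that tumor's sum. It stood at 12.84 and 9.94 against 11.46 and 11.27 on the log2 scale (-0.02, SE 0.95) and was the 1 marker with a lower mean. Beta cell markers had a median of 0.24 over 10 tested genes, with 5 apart as higher, 2 apart as lower and 0 past both thresholds, and Ins1 and Ins2, with groups apart, differed by 0.82 (SE 0.22) and 0.69 (SE 0.20). Summed red blood cell signals were 19801 in PBS tumor 1 and 2802 to 5146 in the others. Most of each sum was Hba-a1, at 14.22 and 12.19 against 11.21 and 12.20 on the log2 scale. Only 2 genes of that list were tested, and Hbb-b1, not among them, exceeded background in sEphB4-Alb tumor 2 alone. The part of acinar, gut, duct, macrophage, beta cell and blood RNA in the neuropeptide differences was not tested.

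Nerve fibres also make these peptides. The 10 tested neuron markers had a median log2 difference of 0.03. Over the 16 with a row, tested or not, the summed normalized signals of 2417, 2269, 2496 and 2314 overlapped between groups. Nefl, Dbh, Slc5a7, Nos1 and Chrna3 were not above background in any tumor. Nos1 marks enteric neurons that often contain Vip, and Dbh marks sympathetic neurons that contain Npy. Of the same list, Th exceeded background in 1 of 2 PBS and 2 of 2 sEphB4-Alb tumors, and Chat and Slc18a3 did so in all 4 tumors. Their log2 differences were -0.29 (SE 0.27), -0.44 (SE 0.27) and -0.63 (SE 0.50). Of the 10 tested markers, 5 had a higher and 5 a lower mean in the sEphB4-Alb tumors. Prph, an intermediate filament of peripheral neurons, was the 1 neuron marker past both thresholds, at 7.74 and 7.58 against 8.88 and 8.59 (1.08, SE 0.18, limma adjusted p = 0.712). It fell short of 2-fold without background correction (0.91), without PBS tumor 2 (0.99) and without sEphB4-Alb tumor 1 (0.93). Schwann cell and glia markers had a median of -0.03 over 5 tested genes, with Gfap and S100b among those not above background. Their summed signals over the 8 genes with a row were 1117 to 1319. Transcription factors of the cAMP, calcium and neuronal pathways had a median of 0.07 over 18 tested of 23, with 0 past both thresholds. Among them Neurod1, a factor of endocrine cells and neurons that binds the E-box letters, stood at 7.18 and 7.39 against 7.67 and 8.16 (0.63, SE 0.23, limma adjusted p = 0.743), while Rest, the repressor of neuronal genes, was not above background.

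**Figure D4:**
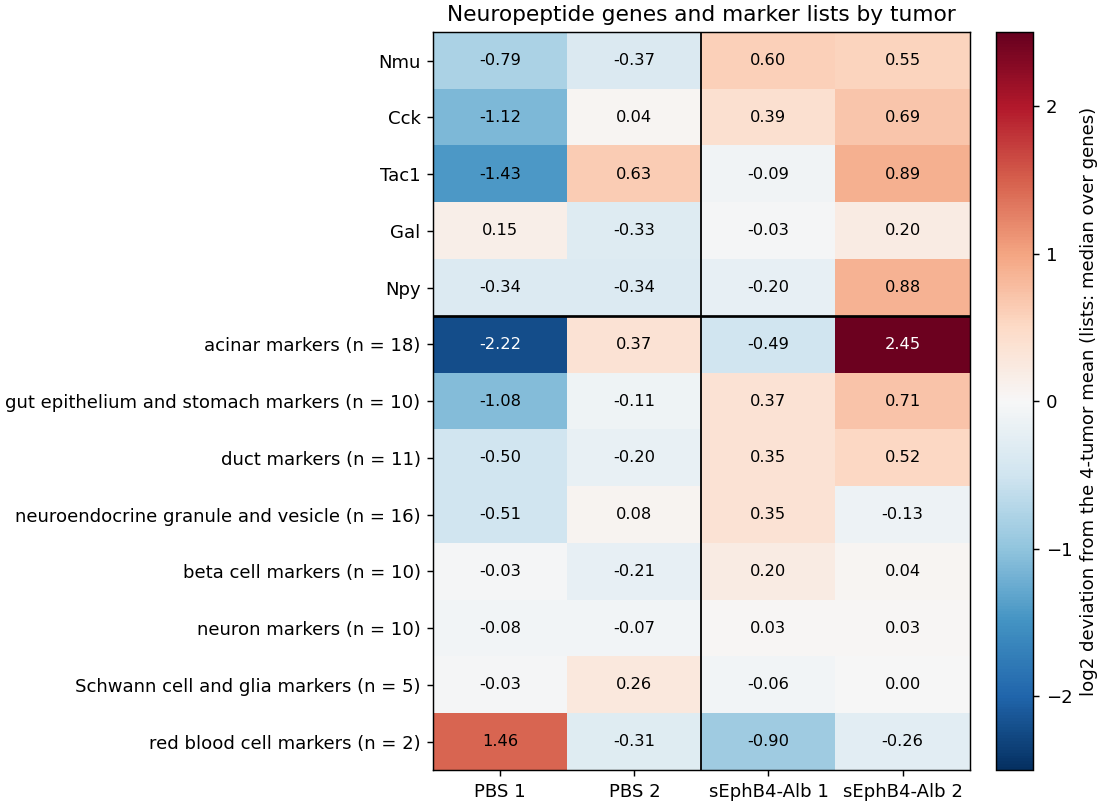
Log2 deviation from the 4-tumor mean (colour and printed number) for each neuropeptide gene above background and for marker lists, where the median over the tested genes is shown (n = number of genes), by tumor (x axis). PBS tumor 1 is low in Cck, Tac1 and the acinar list and high in the red blood cell list, and sEphB4-Alb tumor 2 is high in Tac1, Npy and the acinar list, while the neuron list is near 0 in every tumor.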

How the data were processed

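Total RNA of 2 PBS and 2 sEphB4-Alb treated tumors was measured on 1 array each. For 18091 gene symbols the authors deposited a linear intensity each, whose lowest values well above 0 and unequal medians show neither background subtraction nor scaling. The sources used here name no software or normalization for them. Another 8 columns (signals and detection p-values) carry names that match no single sample and were left out. The log2 values were computed here from the deposited intensity values by normexp with an offset of 50 and quantile normalization. The group difference was fitted by limma (version 3.58.1, lmFit then eBayes; R 4.3.3), which leaves 2 residual degrees of freedom, and p-values were adjusted by Benjamini-Hochberg across 10523 genes. The number of arrays limits the precision.

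The study's cutoffs (2-fold, p of 0.05 without adjustment) were kept. Its methods name the Mann-Whitney-Wilcoxon test for all statistics other than survival, which is run as an alternative because 2 against 2 tumors cannot reach that p. Without usable detection p-values, background was the mode of an array's signals below 300 plus 1.645 times the spread below the mode, a definition taken over from earlier work on these data. The genes of interest and all lists were chosen with earlier results of these data known. Named genes were every neuropeptide gene, the tested receptors and processing enzymes, the 3 list genes of largest difference elsewhere and the 3 genes nearest in profile to each neuropeptide gene, and others were chosen after their values were seen. Some genes that this rule names are not reported here. Listed genes were matched by symbol, 10 of them by an older one. The fit was tested on simulated data. Replicate numbers did not pair the samples (correlation of deviations 0.04). Alternatives were other background correction, scaling, filters, variance models, thresholds and tests, a replicate block, and each tumor left out. Promoters are RefSeq's (GRCm38.p6). Figures used matplotlib 3.10.9.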

Additional observations from a re-analysis of the deposited data

How the results depend on the processing

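The median gene shifted by 0.25 under median scaling, 0.58 without normalization and 0.49 in the log2 of the deposited values, and differences under these settings are given relative to it. Genes past the thresholds were counted before that shift was taken off. All 5 neuropeptide genes above background kept a higher mean under these settings and without background correction, Nmu falling to 0.85 without background correction and 0.76 in the deposited values. With 1 tumor left out, Nmu ranged from 1.02 to 1.36, Cck from 0.50 to 1.67, Tac1 from -0.25 to 1.81, Gal from -0.062 to 0.42 and Npy from 0.13 to 1.22, the negative values being those without PBS tumor 1 (Tac1) and without PBS tumor 2 (Gal). The cause of these moves was not tested. A lone tumor of a group is assumed to vary like the other group. Over all genes, 102 passed both thresholds as higher and 17 as lower. These counts were 67 and 7 without background correction, 296 and 7 under median scaling, 1101 and 3 without normalization, 32 and 8 without moderation, 268 and 123 at 1.5-fold, and 0 and 0 by the exact Mann-Whitney-Wilcoxon test, whose smallest two-sided p for 2 against 2 is 0.33. They were 98 to 301 and 33 to 176 with 1 tumor left out, and 66 were higher when signal above background on all 4 arrays was required. No adjusted p was under 0.05 except 1 gene without moderation. Genes of the 5 pathway lists past both thresholds as higher numbered 4 under median scaling, 14 without normalization, 2 with a trend and robust prior and 0 to 10 with 1 tumor left out, and 0 to 2 were lower. Replicate numbers share only a number here. With the replicate block, Nmu stayed at 1.15, 156 genes passed as higher, 22 as lower and 3 of the pathway lists as higher (Cartpt, Scg3 and Syt4). Vip and Nmu in PBS tumor 1 are limited by signal over background.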
